A study of Homo sapiens with 4 samples.

Results

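The genes that make microRNAs, and the genes that let microRNAs silence their targets, were followed through m6A-seq of HEK293T cells after X-ray exposure. The set held 10 genes taken by symbol out of 14911 genes with a count: DROSHA, DGCR8, DICER1, AGO1, AGO2, AGO3, AGO4, TNRC6A, TNRC6B and TNRC6C. All 10 had counts in all 4 libraries. Averaged over the 4 libraries, 50 counts or more were reached by 5 of the 10, namely AGO1, AGO2, AGO3, AGO4 and DGCR8. DROSHA, with a mean of 48 counts, lay just under that limit, and DICER1, TNRC6A, TNRC6C and TNRC6B followed with means of 28.2, 27.2, 18.8 and 11.5.

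HEK293T is an immortalised line from human embryonic kidney. m6A-seq reads poly(A) RNA fragments bound by an antibody against N6-methyladenosine (m6A-IP) next to fragments that did not pass over the antibody (input). The cells carried either a control shRNA (shCTL) or an shRNA against the m6A eraser ALKBH5 (genotype shALKBH5, here shA5), and both genotypes had been exposed to X-rays. Each combination of genotype and RNA fraction was 1 library, so no value below has a replicate check and no p-value was computed. The shRNAs were delivered by the lentiviral vector pLKO.1 and infected cells were selected with puromycin, so the RNA is that of a selected population. Which ALKBH5 shRNA was used, and how long after exposure these cells were collected, is not given in the sources used here. Unexposed cells, and cells without an shRNA, were not analysed here.

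MicroRNAs begin as hairpins in longer transcripts. In the nucleus the Microprocessor, the ribonuclease Drosha with its RNA-binding partner DGCR8, cuts the hairpin out, and in the cytoplasm Dicer cuts off its loop. An Argonaute protein keeps a single strand as a guide, and the TNRC6 scaffold proteins bound to Argonaute recruit the deadenylases that shorten the poly(A) tail of the target. An expressed shRNA skips the Drosha step and uses Dicer and Argonaute, so the cells of both genotypes carried a hairpin that uses this pathway.

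m6A is often found in the sequence GGACT, read as RNA with U for T, and often lies near the stop codon. For the most counted transcript of each gene but AGO2, the copy of this motif nearest to the last coding base was therefore taken. AGO2 has 8 copies, all in its 3′ UTR, and no window was listed for it. The windows below, from Gencode v44 transcripts that equal hg38 at these positions, have GGACT in capitals. They are given for the neighbouring genes AGO1 and AGO4, for TNRC6A and TNRC6C, which had the lowest and highest ratio of m6A-IP to input in shCTL, and for the Microprocessor genes.
AGO1: tcagaaaaGGACTagatttgt
AGO4: gatgcactGGACTgaattttt
TNRC6A: cacctccgGGACTgactggtc
TNRC6C: tctgtccaGGACTgaagacga
DROSHA: aacctatcGGACTgccattgt
DGCR8: gaatggatGGACTcagcgact
The AGO1 window (chr1:35920075-35920095, plus strand) lies 478 bases into the 3′ UTR and the AGO4 window (chr1:35853825-35853845, plus strand) 230 bases into it. The TNRC6C window (chr17:78104954-78104974, plus strand) lies 119 bases into the 3′ UTR, and the DGCR8 window (chr22:20110330-20110350, plus strand) 232 bases. The windows of TNRC6A (chr16:24820256-24820276, plus strand) and DROSHA (chr5:31435796-31435816, minus strand) are in coding sequence. The DROSHA transcript has 1 copy, whereas AGO1 has 15, AGO4 5, TNRC6A 4, TNRC6C 11 and DGCR8 6. GGACT was searched on the transcript strand, and 93.3% of the genes with enough counts have at least 1 copy. A match is a description of sequence, and no methylation call at these bases was analysed here.

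DGCR8 also holds microRNA hairpins in its own exons. MIR3618 shares 88 bases with the DGCR8 exons and MIR1306 shares 85, and the Microprocessor is known to cut DGCR8 mRNA at such hairpins. The mature microRNA of the first lies in the 5′ UTR (chr22:20085797-20085818, plus strand; RefSeq, GRCh38.p14) and is shown with its seed, bases 2 to 8, in capitals.
hsa-miR-3618: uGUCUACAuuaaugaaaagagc
A further hairpin, MIR3173, lies in an intron of DICER1.

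Library totals were 2237819 counts for the input and 3944402 for the m6A-IP of shCTL cells, and 1311390 and 3148119 for those of shA5 cells. The 10 genes took 1794, 1155, 1144 and 1086 of these counts, which is 0.0802% and 0.0872% of the shCTL and shA5 inputs and 0.0293% and 0.0345% of the m6A-IPs. Levels are given as CPM, counts scaled so that every library has the same total. A level of 0 counts allows up to 3 counts, or 1.34, 0.761, 2.29 and 0.953 CPM in the same order of libraries. Intervals below are exact 95% intervals of the count ratio and hold counting error alone, and they treat each count as an independent fragment, so PCR copies would make them too narrow.

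The knockdown was visible in the targeted gene. ALKBH5 had 217 CPM in the input of shCTL cells and 111 CPM in that of shA5 cells, and 363 and 187 CPM in the respective m6A-IPs. Its input RNA thus had a log2 change of -0.97 (-1.25 to -0.70).

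Of 6 genes listed as HEK293T markers, 3 had more than 3 counts in an input (NEFL, LHX1 and LIN28B), NEFM and INA had 2 or 3, and PAX2 had 0 in both inputs. Their summed level was 168 CPM (input) and 237 CPM (m6A-IP) in shCTL, and 114 CPM and 165 CPM in shA5, with NEFL the most abundant. Of 7 genes of colon epithelium, CDX2 held nearly all of the summed 171, 377, 173 and 363 CPM, CDX1, VIL1 and KRT20 were at 0 in all 4 libraries, and EPCAM and CEACAM5 had at most 3 counts. Leukocyte markers summed to 6.70, 1.52, 6.10 and 0.635 CPM over 4 genes, with LYZ the most abundant and PTPRC and CD3E at 0. Of 4 fibroblast genes COL1A1 was the most abundant and COL1A2 and DCN were at 0, with sums of 183, 151, 124 and 82.0 CPM, and the 3 hepatocyte genes were at 0 throughout. The HEK293T and fibroblast sums were lower in shA5, and their part in the results below was not tested. COL3A1, the other fibroblast gene with counts, went the other way in the inputs, with 4.02 CPM in shCTL and 9.91 CPM in shA5. It rests on 9 and 13 counts.

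Levels per kilobase are those of each gene's most counted transcript alone, with Poisson intervals of its own counts. AGO2, the Argonaute that can itself cut a paired target, led with 24.8 CPM per kb in the shCTL input (23.2 to 26.6), and AGO1 followed with 15.7 CPM per kb (14.3 to 17.1). AGO4 had 9.46 CPM per kb (8.03 to 11.1) and DGCR8 8.23 CPM per kb (6.56 to 10.2), intervals that overlap. DROSHA had 4.58 CPM per kb (3.38 to 6.08), and its interval overlaps neither that of DGCR8 nor that of AGO3, the next gene. The low end was AGO3 with 2.48 CPM per kb (2.03 to 2.99), TNRC6A with 2.21 (1.58 to 2.99), DICER1 with 1.205 (0.801 to 1.74), TNRC6C with 0.630 (0.302 to 1.16) and TNRC6B with 0.199 (0.0861 to 0.393), each interval overlapping that of the next gene in this order. In the shA5 input AGO2 (25.9 CPM per kb) and AGO1 (16.0) led again, and the intervals of AGO4 (10.2), DGCR8 (10.2) and DROSHA (8.80, 6.61 to 11.5) overlap. AGO3 followed with 2.72 CPM per kb (2.12 to 3.43). Its 3 other listed transcripts are short, had at most 7 counts in an input, and do not enter this value.

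**Figure D1:**
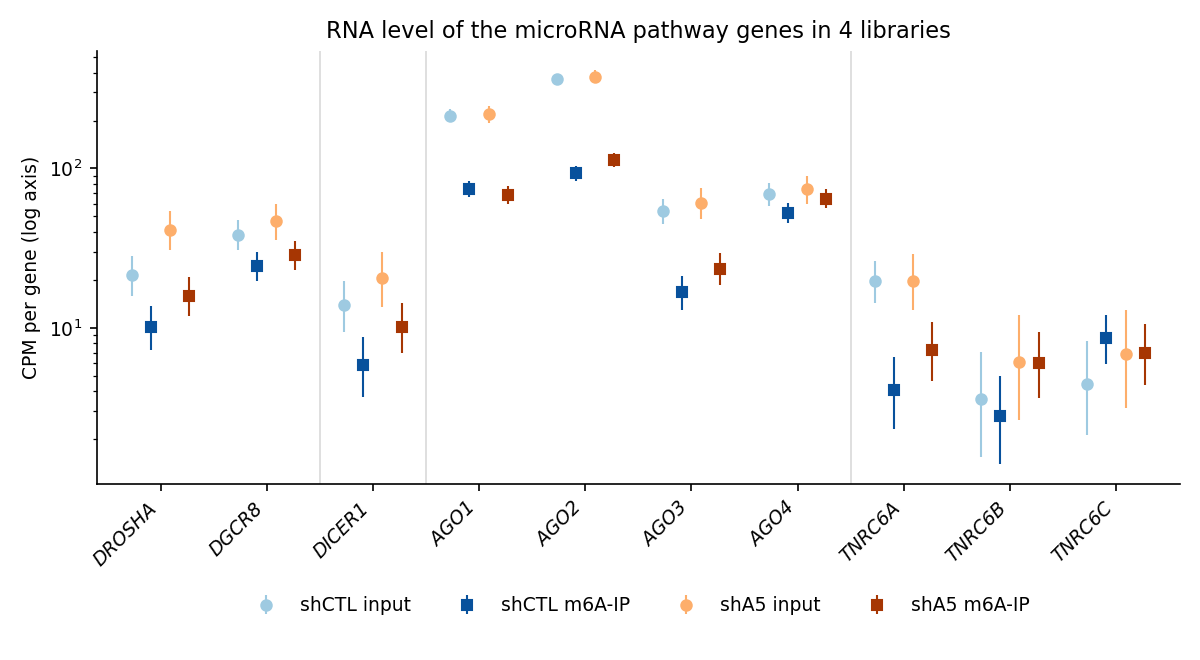
Level of each gene in CPM (log axis) in the input (circles) and m6A-IP (squares) of shCTL and shA5 cells, with exact 95% Poisson intervals of the counts and grey lines between roles. AGO1, AGO2 and AGO3 lie well under their inputs in both m6A-IPs (AGO2 362 against 93.0 CPM in shCTL), AGO4 lies close to its inputs, and the TNRC6 genes rest on few counts.

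The levels depend on how reads that fit several transcripts were counted, which is not given in the sources used here. DICER1 has 33 annotated transcripts in Gencode v44, of which 4 are listed with counts, DROSHA 20 with 1 listed, TNRC6A 18 with 2, and TNRC6C 11 with 1. AGO1 has 8 annotated transcripts, AGO2 10, AGO3 7, AGO4 3, TNRC6B 9 and DGCR8 11. What this does to the levels was not tested. Stretches of 25 bases shared on the same strand with other genes made up 10.1% of the AGO3 transcript and at most 2.79% of the transcript of any other member. On either strand the shares were 13.5% for DGCR8, 11.1% for AGO3 and at most 3.90% for the others. Members shared at most 23 such stretches with each other. Whether the counting used strand is not given either, and antisense transcripts overlap 523 exon bases of DGCR8, 396 of AGO1 and 86 of AGO3, so reads from both strands cannot be told apart there.

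m6A enrichment is the log2 ratio of m6A-IP to input CPM, with 0.5 CPM added to each. Most members had less RNA in the m6A-IP than in the input. At least 1.5-fold under input were 7 of the 10 members in shCTL (AGO1, AGO2, AGO3, TNRC6A, DICER1, DROSHA and DGCR8), against 30.3% of the 5320 genes that averaged 50 counts or more. The same 7 genes were at least 1.5-fold under input in shA5, against 31.7% of genes. At least 1.5-fold over input was 1 member in shCTL (TNRC6C, against 22.5% of genes) and none in shA5 (against 24.3%). The median over the 10 members was -1.11 in shCTL and -1.17 in shA5 on the log2 scale, where the 5320 genes had medians of -0.11 (quartiles -0.73 and 0.52) and -0.10 (quartiles -0.79 and 0.57). The genes with enough counts and the members overlap in 5 genes, and the remaining members are compared with better counted genes.

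**Figure D2:**
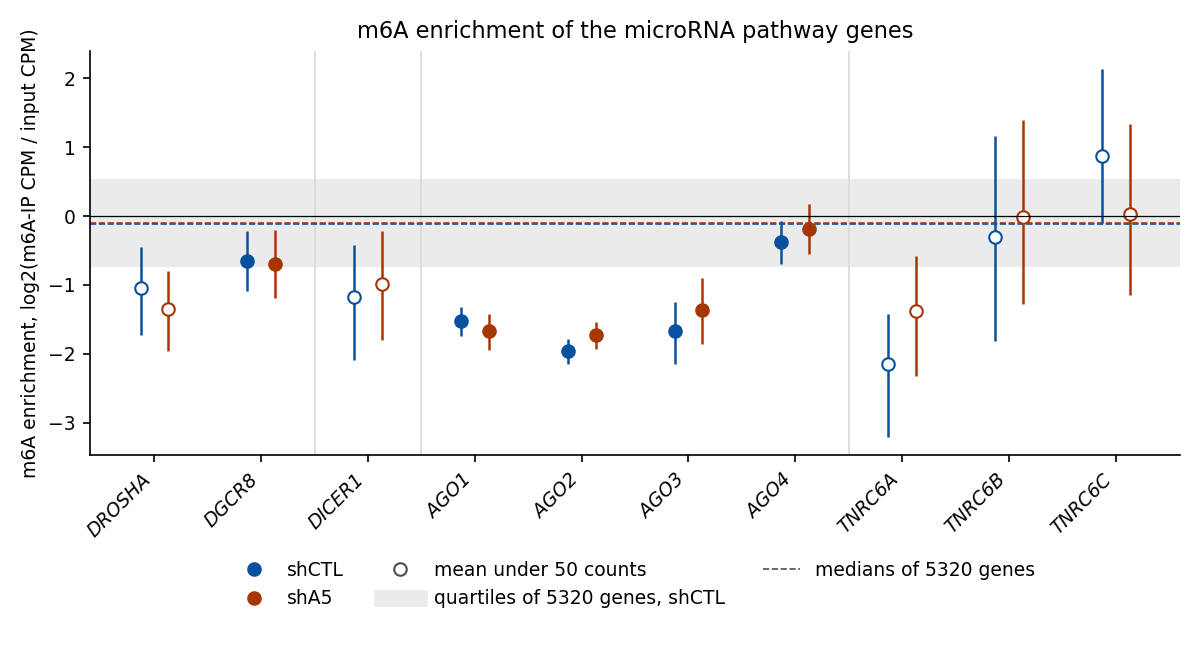
m6A enrichment (log2 of m6A-IP over input CPM) of each gene in shCTL (blue) and shA5 (brown), with exact 95% intervals; open points mark genes with a mean under 50 counts, the grey band the quartiles of 5320 genes in shCTL and dashed lines the medians. AGO1, AGO2 and AGO3 lie between -1.96 and -1.36, below the band, while AGO4 lies inside it at -0.38 and -0.19.

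Both Microprocessor genes had an enrichment under 0 in both genotypes. DROSHA, on chromosome 5 (31400494 to 31532196, minus strand), had 48 input and 40 m6A-IP counts in shCTL, and 54 and 50 in shA5. Its enrichment was -1.04 in shCTL (-1.72 to -0.44) and -1.35 in shA5 (-1.96 to -0.79). DGCR8, on chromosome 22 (20080221 to 20111877, plus strand), had 86 and 96 counts in shCTL and 61 and 90 in shA5. That gives an enrichment of -0.65 (-1.09 to -0.22) in shCTL and -0.69 (-1.19 to -0.21) in shA5. DGCR8 exceeded DROSHA by 0.40 in shCTL (-0.36 to 1.21) and by 0.65 in shA5 (-0.10 to 1.44), and both intervals include 0.

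DICER1, on chromosome 14 (95086228 to 95158010, minus strand), encodes the only Dicer of human cells. It had 31 input and 23 m6A-IP counts in shCTL, and 27 and 32 in shA5. Its enrichment of -1.18 in shCTL (-2.09 to -0.42) and -0.98 in shA5 (-1.80 to -0.22) was under 0 in both.

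The Argonaute genes split into AGO4 and the rest. AGO4, AGO1 and AGO3 stand in a row on the plus strand of chromosome 1, from 35808016 to 36072500, and AGO2 lies on chromosome 8. AGO2 had 811 input and 367 m6A-IP counts in shCTL, and 495 and 357 in shA5, an enrichment of -1.96 (-2.14 to -1.78) and -1.73 (-1.94 to -1.54). That places it below all but 1.73% of the 5320 genes in shCTL and 5.09% in shA5. AGO1 had 481 and 294 counts in shCTL and 287 and 215 in shA5, an enrichment of -1.52 (-1.74 to -1.32) and -1.67 (-1.94 to -1.42). AGO3 had 121 and 66 counts in shCTL and 80 and 74 in shA5, an enrichment of -1.66 (-2.15 to -1.25) and -1.36 (-1.85 to -0.90).

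AGO4 had 154 input and 208 m6A-IP counts in shCTL, and 97 and 204 in shA5. Its enrichment was -0.38 (-0.69 to -0.07) in shCTL and -0.19 (-0.55 to 0.17) in shA5, near the middle of all genes (38.8% and 46.5% of the 5320 genes were lower). The difference in log2 enrichment between AGO4 and AGO1 was 1.14 in shCTL (0.77 to 1.52) and 1.48 in shA5 (1.04 to 1.94), and that between AGO4 and AGO2 was 1.58 (1.22 to 1.94) and 1.54 (1.13 to 1.96). Between AGO4 and AGO3 it was 1.28 (0.76 to 1.86) and 1.17 (0.58 to 1.79). These 6 intervals exclude 0. AGO1 exceeded AGO2 by 0.43 in shCTL (0.15 to 0.71) and by 0.06 in shA5 (-0.28 to 0.39), so that order was not detectable in shA5 at this depth. AGO3 did not differ from AGO1 or AGO2 beyond counting error in either genotype.

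The same contrast can be read as shares of Argonaute counts. AGO4 made up 9.83% of them in the shCTL input (8.40 to 11.4, exact Clopper-Pearson interval) and 22.2% in the shCTL m6A-IP (19.6 to 25.1). In shA5 the shares were 10.1% of the input (8.28 to 12.2) and 24.0% of the m6A-IP (21.2 to 27.0). AGO2 moved the other way, from 51.8% of the shCTL input to 39.3% of its m6A-IP and from 51.6% to 42.0% in shA5. In the m6A-IPs AGO4 thus took a larger part of the family than in the inputs, in both genotypes.

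The TNRC6 genes, whose proteins bind Argonaute through repeated tryptophans and recruit deadenylases, rest on the fewest counts of any family. TNRC6A, on chromosome 16 (24610209 to 24827632, plus strand), had 44 input and 16 m6A-IP counts in shCTL, and 26 and 23 in shA5. Its enrichment was -2.15 (-3.20 to -1.42) in shCTL, the lowest among the members, and -1.38 (-2.32 to -0.57) in shA5. With its most counted transcript alone the values were -2.41 in shCTL and -2.06 in shA5. TNRC6C, on chromosome 17 (77958703 to 78108822, plus strand), had 10 and 34 counts in shCTL and 9 and 22 in shA5. Its enrichment of 0.88 (-0.10 to 2.13) in shCTL, the highest of the members, was 0.02 (-1.15 to 1.33) in shA5. TNRC6B, on chromosome 22 (40044817 to 40335808, plus strand), had 8 and 11 counts in shCTL and 8 and 19 in shA5. Its enrichment was -0.31 (-1.81 to 1.16) in shCTL and -0.01 (-1.27 to 1.39) in shA5, and its most counted transcript alone gave -2.02 in shCTL, outside that interval.

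Within the TNRC6 family TNRC6A was 71.0% of the counts in the shCTL input (58.1 to 81.8) and 26.2% in the shCTL m6A-IP (15.8 to 39.1), of 62 and 61 counts. TNRC6C was 16.1% of the input (8.02 to 27.7) and 55.7% of the m6A-IP (42.4 to 68.5). In shA5, TNRC6A was 60.5% of 43 input counts and 35.9% of 64 m6A-IP counts, and TNRC6C was 20.9% and 34.4%. The difference in log2 enrichment between TNRC6C and TNRC6A was 3.02 in shCTL (1.80 to 4.69) and 1.41 in shA5 (-0.05 to 3.03), where the interval just includes 0. This pair was picked as the highest and lowest member in shCTL, so the shCTL interval is a description and no test.

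**Figure D3:**
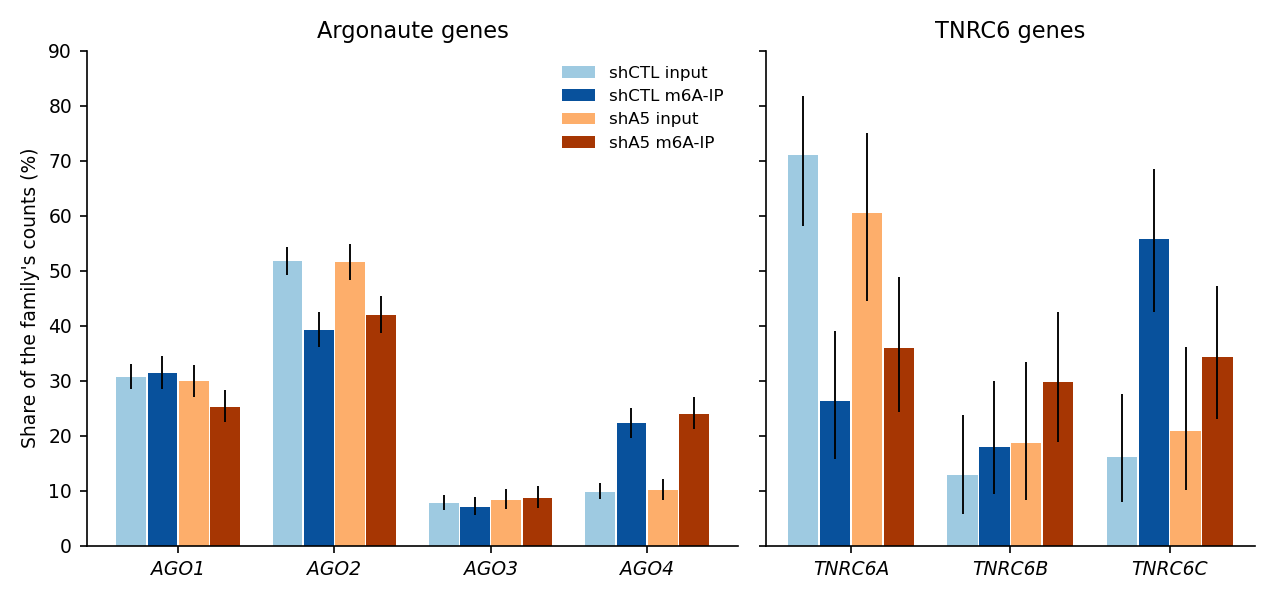
Share of each gene (%) in the counts of the Argonaute genes (left) and of the TNRC6 genes (right) in the input and m6A-IP of shCTL and shA5 cells, with exact 95% Clopper-Pearson intervals. AGO4 makes up about 10% of the inputs (9.83% and 10.1%) and over 22% of the m6A-IPs (22.2% and 24.0%), and TNRC6A leads the TNRC6 inputs with 71.0% and 60.5%.

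The question of the knockdown is how RNA and m6A enrichment differ between shA5 and shCTL. All 10 members had a positive log2 change of input RNA, while 47.5% of the 5320 genes did. The changes ran from 0.01 (TNRC6A) to 0.93 (DROSHA), with a median of 0.22 beside -0.02 over all genes. At least 1.5-fold higher input RNA in shA5 was found for 2 of the 10, DROSHA and TNRC6B (with a pseudocount of 2 CPM DROSHA alone), against 3.44% of genes, and at least 1.5-fold lower input RNA for none, against 6.43%. The interval of the change lay above 0 for DROSHA alone, against 12.9% of genes, and below 0 for none, against 15.6%. With the most counted transcript of each gene in place of the sum, 8 of the 10 changes were positive, and TNRC6B, with 8 input counts on that transcript in shCTL and 2 in shA5, stood at -1.01.

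DROSHA had the widest gap between the inputs, 21.4 CPM in shCTL and 41.2 CPM in shA5, a log2 change of 0.93 (0.35 to 1.53). The m6A-IPs went the same way, with 10.1 CPM in shCTL and 15.9 CPM in shA5 (log2 change 0.62, 0.02 to 1.28). DROSHA did not reach a mean of 50 counts, and 99.3% of the genes that did had a lower input change. In bulk RNA, more RNA per cell and more cells with the RNA cannot be told apart. DGCR8, its partner, had 38.4 and 46.5 CPM in the inputs, a log2 change of 0.27 (-0.22 to 0.77). The sum of both Microprocessor genes changed by 0.55 (0.18 to 0.92), and leaving out DROSHA the sum of the other 9 members changed by 0.09 (-0.02 to 0.20). DROSHA was singled out as the member with the widest gap, so its own interval and those of these sums are a description and no test.

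DICER1 had input levels of 13.9 CPM in shCTL and 20.6 CPM in shA5, with a log2 change of 0.56 (-0.23 to 1.36), which does not clear its counting error. The Argonaute inputs were close to level: AGO1 had 215 and 219 CPM (log2 change 0.03, -0.19 to 0.24), and AGO2 had 362 and 377 CPM (0.06, -0.11 to 0.22). AGO3 had 54.1 and 61.0 CPM (0.17, -0.25 to 0.59) and AGO4 68.8 and 74.0 CPM (0.10, -0.28 to 0.48). For the 4 Argonaute genes summed, the log2 change of input RNA was 0.06 (-0.05 to 0.18). An input change of 1.5-fold, 0.58 on the log2 scale, lies outside the intervals of AGO1, AGO2 and AGO4, and just inside that of AGO3.

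The TNRC6 inputs could not be resolved at this depth. TNRC6A had 19.7 and 19.8 CPM, a log2 change of 0.01 (-0.75 to 0.74). TNRC6B had 3.57 and 6.10 CPM (0.70, -0.84 to 2.38) and TNRC6C 4.47 and 6.86 CPM (0.57, -0.86 to 2.07).

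In the m6A-IPs 8 of the 10 members were higher in shA5 than in shCTL, with AGO1 and TNRC6C lower, and 47.7% of the 5320 genes were higher. The interval of the m6A-IP change lay above 0 for 3 members, against 18.9% of genes, and below 0 for none, against 21.6%. These were AGO2, with 93.0 and 113 CPM and a log2 change of 0.28 (0.07 to 0.50), AGO4, with 52.7 and 64.8 CPM and a change of 0.29 (0.01 to 0.58), and DROSHA. TNRC6B had the largest change (2.79 and 6.04 CPM; 0.99, -0.03 to 2.33), and its interval just included 0, as did those of AGO3 (16.7 and 23.5 CPM; 0.48, -0.01 to 0.99) and DICER1 (5.83 and 10.2 CPM; 0.75, -0.02 to 1.64). The changes of TNRC6A (0.78, -0.13 to 1.87), DGCR8 (0.23, -0.20 to 0.66) and TNRC6C (-0.28, -1.15 to 0.51) had intervals that include 0 as well. AGO1 had 74.5 and 68.3 CPM (-0.13, -0.39 to 0.13). Differences between members in this change were not tested.

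**Figure D4:**
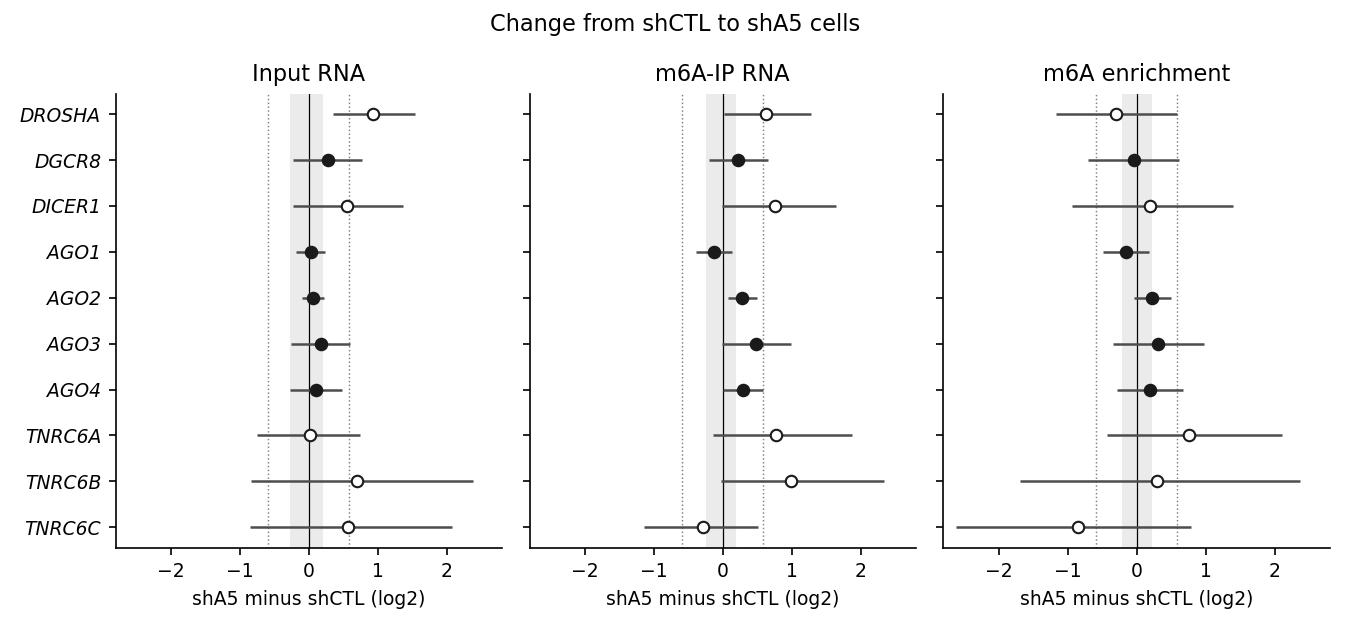
Log2 change from shCTL to shA5 of input RNA (left), m6A-IP RNA (middle) and m6A enrichment (right) for each gene, with exact 95% intervals; open points mark a mean under 50 counts, grey bands the quartiles of 5320 genes and dotted lines 1.5-fold. The interval of the input change lies above 0 for DROSHA alone (0.93, the largest among the members), against 12.9% of genes. The interval of every change in m6A enrichment includes 0.

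Every library was scaled to its own total, so a rise or fall of m6A shared by all genes does not show in the values below. They are relative to the other genes of the library. The change of m6A enrichment is the shA5 value minus the shCTL value. Its interval included 0 for all 10 members, where it lay above 0 for 8.18% and below 0 for 8.06% of the 5320 genes. By size alone, 1 member passed 1.5-fold upward (TNRC6A, against 5.38% of genes) and 1 downward (TNRC6C, against 5.09%), both with few counts. With the most counted transcript alone, TNRC6A stood at 0.34 and did not pass, while TNRC6B passed at 2.44, outside the interval of its summed counts. The change was positive for 6 members and negative for AGO1, TNRC6C, DROSHA and DGCR8, and 50.5% of the 5320 genes were positive. The median over the 10 members was 0.19, beside 0.00 (quartiles -0.19 and 0.21) over all genes.

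Among the Argonaute genes AGO2 changed by 0.23 (-0.04 to 0.50), AGO3 by 0.31 (-0.35 to 0.98), AGO4 by 0.19 (-0.28 to 0.67) and AGO1 by -0.15 (-0.49 to 0.19). Summed, the Argonaute genes changed by 0.12 (-0.05 to 0.31). TNRC6A changed by 0.76 (-0.43 to 2.11), TNRC6B by 0.29 (-1.69 to 2.36) and TNRC6C by -0.85 (-2.62 to 0.80). DICER1 changed by 0.20 (-0.94 to 1.40), DROSHA by -0.30 (-1.17 to 0.59) and DGCR8 by -0.04 (-0.71 to 0.62). A 1.5-fold change of enrichment relative to the library totals lies outside the intervals of AGO1 and AGO2. A change of m6A shared by all genes is not covered by this. Differences between members in this change were not tested.

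The members are long mRNAs. The most counted transcript was 13712 bases for AGO1, 14595 for AGO2, 19660 for AGO3 and 7272 for AGO4, with 3′ UTRs of 10925, 11888, 16755 and 4285 bases. TNRC6B had 17933 bases, DICER1 10384, TNRC6A 8303, TNRC6C 7093, DROSHA 4681 and DGCR8 4506, and the median of the genes with enough counts was 3590. Over 5292 of these genes with a length, the Spearman correlation of length with m6A enrichment was -0.02 in shCTL and -0.00 in shA5. These correlations run across genes and are not replicated. Genes of at least 12000 bases, 150 in number, had a median log2 enrichment of -0.44 in shCTL (quartiles -0.92 and 0.22), with 42.0% at least 1.5-fold under input. AGO1, AGO2 and AGO3 lay below that lower quartile. TNRC6B could not be placed, since its interval (-1.81 to 1.16) spans both quartiles and its most counted transcript alone gave -2.02. AGO4 (-0.38) lay within the quartiles of the 571 genes of 6000 to 8000 bases (-0.84 and 0.42).

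**Figure D5:**
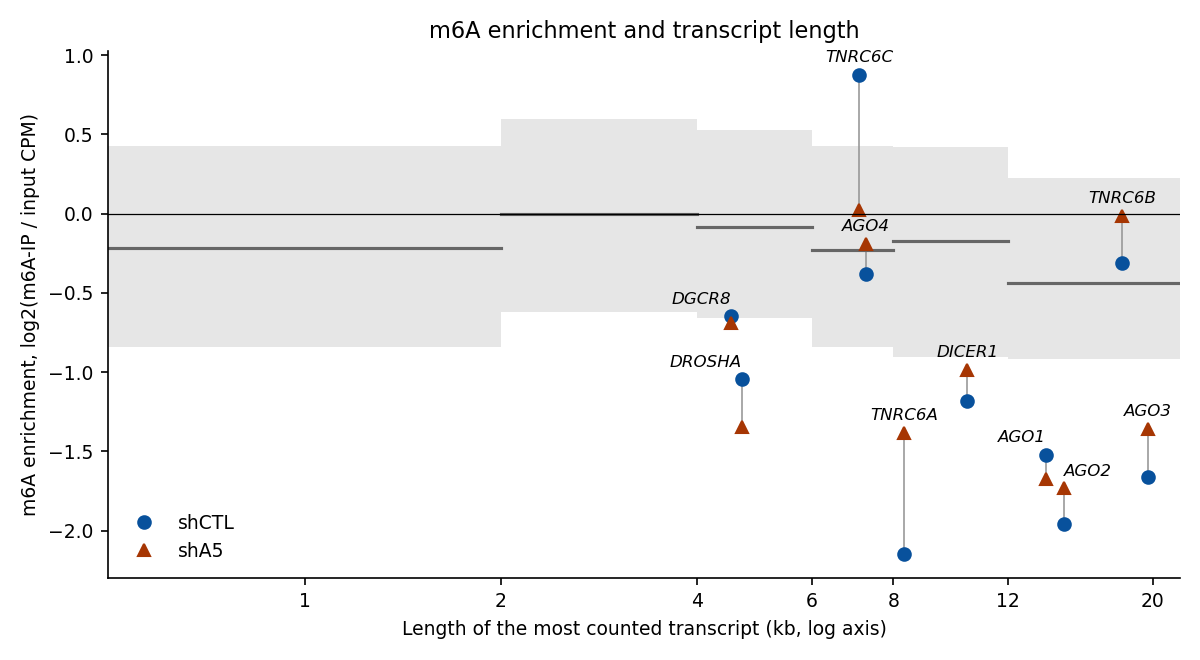
m6A enrichment (log2) against the length of the most counted transcript (kb, log axis) for each gene in shCTL (circles) and shA5 (triangles); grey bands and lines give the quartiles and medians of genes by length in shCTL. AGO1, AGO2 and AGO3 lie below the lower quartile of genes of at least 12000 bases (-0.92), and AGO4 lies inside the quartiles for its length.

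Per kb of transcript, most members had fewer copies of GGACT than the median of the genes with enough counts. That median was 0.960, with quartiles of 0.608 and 1.41. AGO2 (0.548 copies per kb), TNRC6A (0.482) and DROSHA (0.214) were under the lower quartile. AGO3 (0.610), AGO4 (0.688), TNRC6B (0.669) and DICER1 (0.867) lay between it and the median. AGO1 (1.09), DGCR8 (1.33) and TNRC6C (1.55) were above the median. Over 5292 genes the Spearman correlation of GGACT per kb with m6A enrichment was 0.17 in both genotypes, and that of the shorter GGAC, which every GGACT contains, was 0.32 in shCTL and 0.34 in shA5. TNRC6C, the member with the highest enrichment in shCTL (0.88, -0.10 to 2.13), had the most GGAC per kb of the 10 (5.64). DGCR8 came next (5.10), with an enrichment of -0.65 in shCTL. AGO4 (-0.38) and TNRC6B (-0.31, on few counts) were higher than DGCR8 there, and TNRC6B had 2.79 GGAC per kb. AGO1 and AGO4, whose enrichment differed, had 3.21 and 3.71 GGAC per kb.

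Genes that work next to the members were taken as 6 lists. Genes named for a change past 1.5-fold were picked by that change, so their intervals are a description and no test. Of 18 Microprocessor partners and regulators of microRNA precursors, 11 had enough counts, 6 of them at least 1.5-fold under input in shCTL (30.3% of all genes). ERH, a small partner of DGCR8, had 238 input and 140 m6A-IP counts in shCTL, 165 and 76 in shA5, and a change of m6A enrichment of -0.79 (-1.32 to -0.28). LIN28B, which binds let-7 precursors, had 74 and 28 input counts, a log2 change of -0.62 (-1.31 to 0.01).

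Of 15 export factors, Dicer partners and chaperones that load Argonaute, 12 had enough counts, with 2 at least 1.5-fold under input in shCTL (30.3% of all genes), 5 in shA5 (31.7%), and 1 over in each (22.5% and 24.3%). FKBP4, a co-chaperone of HSP90, had the most counts (3079, 4174, 1723 and 3145, in the same order), with an enrichment of -0.38 in shCTL and -0.40 in shA5. HSP90AB1, which encodes the constitutive HSP90, had 334, 213, 162 and 233 counts, with a log2 enrichment of -1.46 (shCTL) and -0.74 (shA5), a change of 0.72 (0.33 to 1.12).

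The 25 decay factors that act after TNRC6 included 9 with enough counts. Of these, 7 were at least 1.5-fold under input in both genotypes (30.3% and 31.7% of all genes) and 1 over (22.5% and 24.3%). None passed 1.5-fold in the change of enrichment (5.38% of all genes upward and 5.09% downward) or of input RNA (3.44% and 6.43%). EDC4, a decapping scaffold, had the most counts (2177, 2462, 1379 and 1902) and an enrichment of -0.64 in shCTL and -0.80 in shA5. The list median was -0.70 in shCTL, beside -0.11 over all genes.

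Among 18 modifiers and partners of Argonaute, 11 had enough counts, with 4 at least 1.5-fold under input in shCTL (30.3% of all genes), 3 in shA5 (31.7%), and 2 over in each (22.5% and 24.3%). ANKRD52, a subunit of the phosphatase that acts on Argonaute, had 1658, 1655, 995 and 1289 counts and an enrichment of -0.82 and -0.89. EGFR, a receptor kinase that can phosphorylate AGO2, had 123 and 43 input counts, a log2 change of -0.74 (-1.28 to -0.23). Of 13 genes for tailing and turnover of microRNAs, listed under 18 current or older symbols, 7 had enough counts, with 4 under input in shCTL (30.3% of all genes), 3 in shA5 (31.7%), and 1 and 2 over (22.5% and 24.3%). XRN2, a nuclear exonuclease, had 1180, 659, 599 and 383 counts and an enrichment of -1.66 and -1.90. PNPT1, a mitochondrial exoribonuclease, had 224, 134, 177 and 86 counts and a change of enrichment of -0.74 (-1.25 to -0.24).

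The germline PIWI branch, the relatives of Argonaute that bind piRNAs, had 12 listed genes, of which 5 had a count in some library and 1, PLD6, had enough. PLD6, an enzyme of the mitochondrial surface, had 129, 240, 79 and 172 counts.

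The profile of the summed members over the 4 libraries was compared with that of 2489 other genes that averaged 200 counts or more, by Euclidean distance of centred log2 CPM. The 5 nearest were ENO1 (distance 0.037), NPC1 (0.073), NCR3LG1 (0.113), XAB2 (0.119) and PTPN14 (0.119). ENO1, which encodes a glycolytic enolase, had 1967, 1303, 1298 and 1216 counts, an enrichment of -1.41 in shCTL and -1.36 in shA5, and an input change of 0.17. The summed members had an enrichment of -1.45 (-1.56 to -1.35) in shCTL and -1.34 (-1.46 to -1.22) in shA5. They had changes of 0.12 (0.01 to 0.23) in input RNA and 0.11 (-0.05 to 0.28) in m6A enrichment. Of their 1794 input counts in shCTL, 1567 came from the Argonaute genes, with 811 from AGO2 and 481 from AGO1. The sum and its nearest genes thus mostly follow AGO1 and AGO2, while the median enrichment over the 10 members was -1.11 in shCTL.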

How the data were processed

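The deposited values are the authors' unscaled counts for Ensembl transcripts, and transcripts without a count are not listed. Per the methods and the submitters' processing notes, reads were converted with bcl2fastq 2.0, trimmed with fastp 0.23.2, aligned to hg38 with HISAT2 and sorted with SAMtools 1.9, with StringTie named for quantification and MACS2 for peaks. The program that made the counts, its annotation and its rule for shared reads are not given in the sources used here. Counts of 28413 transcripts were summed to 14911 gene names (2 of them turned into dates, and 0 blank) and divided by library totals to give CPM. Enrichment is log2 of m6A-IP over input CPM with a pseudocount of 0.5 CPM, with Clopper-Pearson intervals. The interval of its change comes from the conditional odds ratio. Intervals leave out the pseudocount. Levels per kb use the most counted transcript and its Gencode length, a choice made after the data were seen. Called means past 1.5-fold, over the 5320 genes that averaged 50 counts or more. Steps were tested on simulated data. Named genes are the 10 members, ALKBH5, the most counted gene of each list, up to 4 list genes past 1.5-fold in a change, and the 5 genes nearest to the summed members, and not every gene so taken is reported. Members and lists were chosen with earlier results of these data known. All 10 members and 27886 transcripts matched Gencode v44. Alternatives were edgeR 4.0.16 TMM factors and DESeq2 1.42.0 size factors, other pseudocounts, filters and thresholds, and the most counted transcript alone. Software was R 4.3.3, Python 3.11.15, pandas 2.3.3, scipy 1.17.1, numpy 2.4.6 and matplotlib 3.10.9. Peaks were not analysed here.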

Additional observations from a re-analysis of the deposited data

Results flagged for a closer look

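The interval of the change of m6A enrichment between the genotypes excluded 0 for 5 of the 11 genes taken from the lists, while it lay above 0 for 8.18% and below 0 for 8.06% of the 5320 genes. The genes taken are not comparable with all genes, since they were the most counted of a list or were picked by a change. Of the 5, ERH, HSP90AB1 and PNPT1 had been named because a change passed 1.5-fold, so for them the interval is no test. The log2 change was -0.79 for ERH (-1.32 to -0.28), 0.72 for HSP90AB1 (0.33 to 1.12), -0.16 for EDC4 (-0.29 to -0.03), -0.25 for XRN2 (-0.49 to -0.02) and -0.74 for PNPT1 (-1.25 to -0.24). PLD6 had a log2 enrichment of 0.08 in shCTL (-0.24 to 0.40) and -0.14 in shA5 (-0.53 to 0.26), values of opposite sign whose intervals both include 0. Their difference of -0.22 (-0.73 to 0.30) was not tested against replicates. These intervals compare 4 libraries, not conditions.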

How the results depend on the processing

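Another scaling (edgeR TMM factors or DESeq2 size factors within inputs and within m6A-IPs) and pseudocounts of 0.1 or 2 CPM left the counts among the 5 members with enough counts unchanged. Of 48 counts over all 10 members, recomputed without the filters, 37 were equal to those given. Input RNA at least 1.5-fold higher in shA5 was found for 3 members with a pseudocount of 0.1 CPM (TNRC6C entered), for 1 with 2 CPM (TNRC6B left, at 0.54) and for 1 with the most counted transcript alone. That transcript choice also gave 1 member with lower input RNA and 8 under input in shCTL, and TNRC6B in place of TNRC6A with higher enrichment. At a 2-fold threshold 6 members were under input in shCTL and 5 in shA5, and 0 passed in any other comparison. No share of all genes at 2-fold is given beside these counts. Of 520 values of single genes and sums recomputed, 517 stayed within their counting interval, and the other 3 were TNRC6B with its most counted transcript alone, where the input change was -1.01 (reversed from 0.70), the change of m6A enrichment 2.44 and the enrichment in shCTL -2.02. Of 240 list counts under another scaling, pseudocount or transcript choice, 234 were equal to those given. Under another filter or threshold 85 of 192 were equal. Decay factors under input in shCTL were 7 of the 9 with enough counts and 16 of all 25 with no filter, so their share did not rise. With a mean of 10 counts 14 were under input. Decay factors with a higher or lower enrichment in shA5 went from 0 and 0 to 3 and 4 with a mean of 10 counts. Without a filter the Microprocessor partners had 3 and 5 of 18, in place of 0 and 1 of 11. No share over all genes is given here under another filter, pseudocount or transcript choice. When the filter was set to 10 counts, or dropped, all 10 members entered. Their median enrichment in shCTL was then -1.11 in place of -1.52 over the 5 with enough counts. The counts were 1 member over input in shCTL, 7 under input in shCTL and 7 in shA5, 1 with enrichment higher and 1 lower in shA5, and 2 with input RNA higher, where the 5 members with enough counts gave 4 under input in each genotype and 0 for the rest. With a mean of at least 200 counts 2 were under input in each genotype. The counts under input and over all 10 members, the signs of changes, and the list and sum values were added to these alternatives after the data were seen.

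With 1 library per group, neither a paired analysis nor leaving out a replicate was possible. The shA5 input, with 1311390 counts, is the smallest library. For genes with few counts the intervals are wide, and a value that stays within such an interval is not thereby stable. Variation between cultures and library preparations was not measured.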
